A study of Mus musculus with 12 samples.

Results

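The core machinery of autophagy was examined as a set of 40 genes among the 55536 genes counted in the mouse cerebellum and cerebral cortex. The set was drawn up by gene name, with earlier results of these data known, and no measured value entered the rule. It spans the ULK1 initiation kinase complex, the class III PI3-kinase complexes, membrane supply and lipid transfer, the 2 ubiquitin-like conjugation systems, the Atg4 proteases, the Atg8 family, soluble cargo receptors and fusion factors. All 40 were found under their own gene identifiers and all 40 passed the filter on low counts in every comparison. Their lowest count in any library was 88 read pairs, for *Atg4a*.

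In autophagy, a double membrane grows around cytoplasm or a damaged organelle, closes into an autophagosome and fuses with the lysosome, where the contents are digested. The ULK1 kinase complex starts the process, the lipid kinase PIK3C3 marks the growing membrane with PI3P, ATG9A vesicles and ATG2 bridges supply lipid, and the conjugation enzymes attach Atg8-family proteins (LC3 and GABARAP) to that membrane. Receptors such as p62 tie cargo to the Atg8 proteins. Neurons depend on this clearance, and mice that lack *Atg5* or *Atg7* in the nervous system lose Purkinje cells. Much of the pathway is controlled on proteins, by phosphorylation, lipidation and degradation, so transcript levels are not a measure of autophagic flux.

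WT mice and *Snx14*-KO mice aged 1 month gave cerebellum and cortex for RNA-Seq, with 3 mice for each genotype and 1 library for each tissue of each numbered mouse. *Snx14* encodes a sorting nexin of the endoplasmic reticulum that has been tied to lipid droplets and autophagic clearance, and the comparison asks what its loss does before the cerebellum degenerates. The *Snx14*-KO mice were homozygous for a frameshifting deletion of a single base, made with Cas9 on the C57BL/6J background and carried in every cell of the body. The submitters' design text calls the WT mice control littermates, and all mutants carried the same allele of a single line. Whole tissue was lysed, so a lower value can mean fewer cells of a type or less RNA per cell, and these cannot be told apart.

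Each library held 16672589 to 19887427 read pairs counted on genes, and no pair of replicates agreed within sampling noise. *Snx14* was lower in every *Snx14*-KO library, at 10.4, 10.9 and 11.2 CPM (counts-per-million) in cerebellum against 63.9, 63.6 and 67.0 in WT cerebellum, 5.93-fold lower. In cortex it was 6.97-fold lower (adjusted P = 3.19e-08). Markers followed the labelled tissues, with summed granule cell markers at 3597 to 4219 CPM in WT cerebellum and 166 to 182 CPM in WT cortex, and forebrain excitatory markers at 477 to 583 and 5359 to 5779 CPM. No marker gene was at 0 in any group. Some libraries stood apart in other cell types. Choroid plexus markers ran from 84.8 to 7495 CPM across WT cerebella, with WT cerebellum replicate 3 highest. In WT cortex they were at 144 CPM in replicate 1 against 18.4 and 21.9 CPM in replicates 2 and 3. Meningeal markers in WT cerebellum were at 168 CPM in replicate 1 against 337 and 336 CPM in replicates 2 and 3. Microglial markers reached 511 CPM in *Snx14*-KO cerebellum replicate 3 against 222 and 228 CPM in the other two, and meningeal markers 387 CPM in *Snx14*-KO cortex replicate 2 against 141 and 129 CPM. In *Snx14*-KO against WT cerebellum, 10 of 10 granule cell, 9 of 10 Purkinje cell, 10 of 10 oligodendrocyte, 10 of 10 choroid plexus and 5 of 5 red blood cell markers had a lower fitted value, and 8 of 10 endothelial, 9 of 10 astrocyte, 10 of 10 microglial and 10 of 10 meningeal markers a higher one. In cortex, 10 of 10 oligodendrocyte, 6 of 6 choroid plexus and 5 of 5 red blood cell markers were lower, and 8 of 10 astrocyte, 10 of 10 endothelial and 10 of 10 meningeal markers higher. The summed oligodendrocyte markers were 7298, 5626 and 8013 CPM in *Snx14*-KO cortex and 7916 to 8199 CPM in WT cortex, with replicate 2 again apart. None of the marker genes was called in either tissue by edgeR. At an unadjusted P under 0.05 there were 5 granule cell, 1 Purkinje cell, 2 forebrain excitatory, 6 astrocyte, 6 microglial, 8 meningeal and 2 endothelial markers in cerebellum. In cortex there were 1 granule cell, 1 Purkinje cell, 2 forebrain excitatory, 2 astrocyte, 8 oligodendrocyte, 6 meningeal, 1 endothelial, 2 choroid plexus and 2 red blood cell markers, and the lists not named had 0. The part of these cells in the values of the autophagy genes was not tested.

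The stretches upstream of the 3 members below are shown because *Optn* and *Gabarapl2* had the highest cerebellum-to-cortex ratios of the members on the counts as deposited and *Ulk2* was among those with the lowest. Each is the 250 bases before the RefSeq transcription start on GRCm38.p6, 5′ to 3′ on the gene's strand, and none overlaps an annotated exon. The window of *Gabarapl1*, the member most in favor of cortex, lay inside annotated exons and is not shown.
*Optn*, chr2:5064118-5064367, minus strand: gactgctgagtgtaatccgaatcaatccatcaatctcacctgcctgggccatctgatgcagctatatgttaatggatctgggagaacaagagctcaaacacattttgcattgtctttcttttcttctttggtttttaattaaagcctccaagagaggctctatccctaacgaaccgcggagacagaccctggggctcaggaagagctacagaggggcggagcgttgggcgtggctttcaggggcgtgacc
*Gabarapl2*, chr8:111940453-111940702, plus strand: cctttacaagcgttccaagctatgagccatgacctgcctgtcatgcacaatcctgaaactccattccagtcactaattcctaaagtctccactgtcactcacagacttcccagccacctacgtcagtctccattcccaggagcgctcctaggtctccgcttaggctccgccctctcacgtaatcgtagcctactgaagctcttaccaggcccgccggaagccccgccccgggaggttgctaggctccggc
*Ulk2*, chr11:61855093-61855342, minus strand: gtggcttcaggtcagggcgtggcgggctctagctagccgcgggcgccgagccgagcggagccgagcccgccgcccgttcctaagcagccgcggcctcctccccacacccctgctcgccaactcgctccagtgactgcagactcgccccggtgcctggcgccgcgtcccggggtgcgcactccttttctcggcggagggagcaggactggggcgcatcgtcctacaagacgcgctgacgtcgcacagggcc
G and C made up 50.0% of the *Optn* stretch, 57.2% of the *Gabarapl2* stretch and 72.8% of the *Ulk2* stretch. The lysosomal and autophagy regulator TFEB binds a palindrome with the core CACGTG, which none of these 3 stretches holds. Searched on both strands over the RefSeq windows of 300 bases (250 before and 50 after the start), CACGTG was present in 4 of the 33 members with a window (12.1%), against 7.24% of 27025 windows of all genes. These members were *Atg3*, *Atg5*, *Atg7* and *Atg14*. The longer TCACGTGA, which contains the first, was found in *Atg3* only (3.03% of members, 1.01% of all), as counted on both strands of the same windows. *Atg3*, which encodes the E2-like enzyme that lipidates Atg8 proteins, holds the core 2 times in its exon-free upstream stretch, in capitals here.
*Atg3*, chr16:45158707-45158784, plus strand: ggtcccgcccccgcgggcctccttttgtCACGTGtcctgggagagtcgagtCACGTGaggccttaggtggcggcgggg
The first match starts 94 bases before the RefSeq start. The window of *Atg7* lies 9066 bases from the nearest GENCODE start of that gene, so it may not be the promoter in use. *Rb1cc1*, *Becn1*, *Pik3c3*, *Atg12*, *Atg16l1*, *Map1lc3a* and *Epg5* were not matched to a window.

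Levels were compared between genes as TPM (transcripts-per-million), which divide by exon length. *Gabarapl1*, an Atg8-family gene of the GABARAP branch, had the highest level of the set in every group, at 461 ± 14.6 TPM (SD, n = 3) in WT cerebellum and 839 ± 26.6 TPM in WT cortex. *Map1lc3a* (LC3A), *Sqstm1* (p62), *Gabarapl2* and *Gabarap* held the next places in every group, in varying order. The lead of *Gabarapl1* includes counts shared with an overlapping gene of the opposite strand, *1700101I11Rik*. A pair over both genes was counted for both, so these may be reads of *Gabarapl1* itself. Its lower limit, with all counts of *1700101I11Rik* taken off, would be 337 TPM in WT cerebellum, beside 334 ± 25.8 TPM for *Map1lc3a*. In WT cortex that limit would be 613 TPM, above *Map1lc3a* at 434 ± 12.3 TPM. *Atg4a*, a protease that trims Atg8 proteins, was lowest in every group on the counts as deposited, at 8.92 TPM in WT cerebellum and 7.17 TPM in WT cortex. On these counts the members spanned 51.6-fold in WT cerebellum and 117-fold in WT cortex. The median member stood at 31.6 TPM in WT cerebellum, against 14.8 TPM for the genes at 1 TPM or more, and 32 of 40 members lay above that median. In WT cortex 36 of 40 did.

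**Figure D1:**
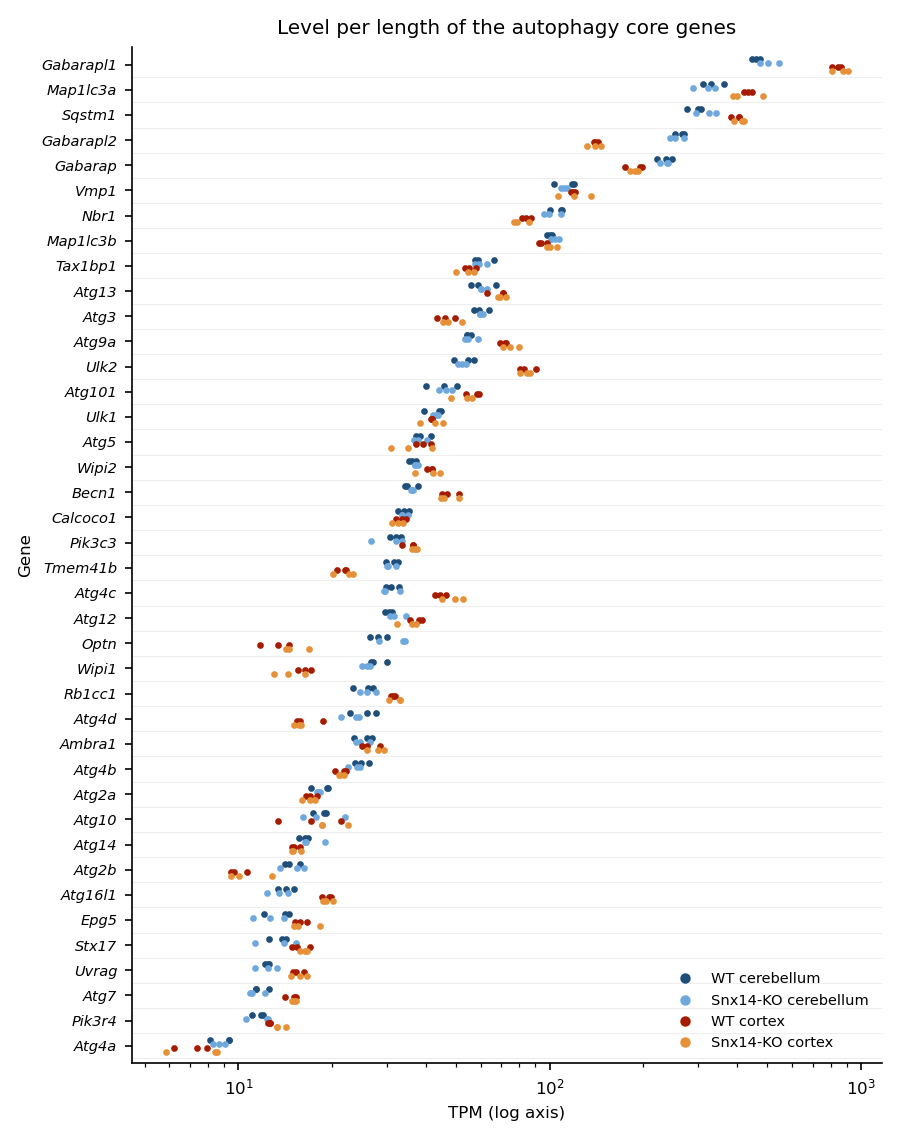
TPM of the 40 autophagy core genes (log axis), with a point for each library and genes sorted by their mean in WT cerebellum; colors mark the 4 groups of 3 libraries. On the counts as deposited *Gabarapl1* is highest and *Atg4a* lowest in every group, and the WT and *Snx14*-KO points of a tissue lie together for most genes.

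Summed levels differed by role, over unequal numbers of genes. The 5 Atg8-family genes summed to 1393 ± 60.0 TPM in WT cerebellum and the 5 receptors to 523 ± 22.4 TPM, of which *Sqstm1* held 294. Sums were 297 TPM for the 7 genes of membrane supply and 174 for the 6 conjugation enzymes. The 4 proteases summed to 90.4 TPM and the 2 fusion genes to 27.1. Upstream, sums were 228 ± 6.28 TPM for the 5 genes of the initiation kinase complex and 133 ± 3.95 TPM for the 6 of the PI3-kinase complexes. Within the latter, *Becn1* (35.6 TPM) and the kinase gene *Pik3c3* (32.0 TPM) exceeded *Pik3r4* (11.6 TPM), which encodes the VPS15 partner of the kinase, and *Atg14* (16.2 TPM) and *Uvrag* (12.4 TPM), which define the autophagy and endosome complexes. The overlapping *Cntd1*, which shares 43.9% of the exon bases of *Becn1*, had 47.0% to 49.3% as many counts in WT cerebellum. These may be reads of *Becn1* itself, since a pair over both genes was counted for both. The lower limit of *Becn1*, with all of them taken off, would be 18.6 TPM. Neighbors in the order were often too close to rank: only 11 of 39 neighboring pairs in WT cerebellum and 17 of 39 in WT cortex had libraries that did not overlap. *Gabarapl1* and *Map1lc3a*, the top pair, did not overlap in either WT tissue.

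Loss of *Snx14* was compared within cerebellum first, since this is the tissue that degenerates later. No autophagy core gene was called higher or lower in 1-month-old *Snx14*-KO cerebellum at an adjusted P under 0.05 (edgeR quasi-likelihood test), where 0.00549% of the 18201 genes tested were called, which is *Snx14* alone. At an unadjusted P under 0.05 the count of members was also 0, against 8.15% of all genes. With DESeq2, which called 1.13% of genes, no member was called and none was under an unadjusted P of 0.05 (7.27% of genes were). The count stayed at 0 with any 1 library left out, *Snx14*-KO cerebellum replicate 3 included. Fitted log2 fold changes of the members ran from -0.13 to 0.18 with a median of -0.0064 (all genes, -0.00062). The 95% intervals of all 40 lay within 0.50 of 0 on the log2 scale, from -0.36 at the lowest to 0.38 at the highest, and 58.8% of all genes had intervals this narrow. These intervals are for the counts as deposited, and for members that overlap other genes they do not bound a change in the member's own reads.

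The members with the smallest P in cerebellum were a pair of receptors and an Atg8 gene. *Optn* (optineurin, a receptor for damaged mitochondria) measured 30.5, 32.6 and 32.9 CPM in the 3 WT cerebella and 38.4, 32.7 and 36.6 CPM in the 3 *Snx14*-KO cerebella. Its highest 2 values were both *Snx14*-KO, but the groups overlapped (log2 fold change 0.18, SE 0.0863, adjusted P = 0.665). *Gabarapl1* measured 294, 278 and 271 CPM in WT and 327, 294 and 294 CPM in *Snx14*-KO cerebellum (log2 fold change 0.13, SE 0.0672, adjusted P = 0.685). *Sqstm1*, whose protein accumulates when autophagy stalls, measured 308, 287 and 299.9 and 326, 305 and 333 CPM (log2 fold change 0.12, SE 0.0663, adjusted P = 0.732). *Snx14*-KO means were higher for these 3 genes and their intervals included 0. A single member had groups that did not overlap, *Wipi1*, a PI3P-binding protein of the growing membrane, against 12.5% of all genes (6.32% lower). It measured 36.0, 41.0 and 34.9 CPM in WT and 34.2, 34.0 and 33.8 CPM in *Snx14*-KO cerebellum (log2 fold change -0.12, SE 0.0824, adjusted P = 0.819).

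By role, the groups of members stayed close to 0 in *Snx14*-KO cerebellum. The 5 initiation genes had log2 fold changes of -0.042 (*Ulk2*) to 0.024 (*Rb1cc1*, the FIP200 scaffold). The PI3-kinase genes ran from -0.066 for *Pik3c3* to 0.082 for *Atg14*, and the conjugation enzymes from -0.087 for *Atg16l1* to 0.081 for *Atg12*. *Atg5* and *Atg7*, the conjugation genes whose loss kills Purkinje cells, were at -0.037 (95% interval -0.24 to 0.17) and -0.051 (-0.27 to 0.17). All 4 Atg4 proteases had a fitted log2 fold change below 0, from -0.13 for *Atg4d* to -0.028 for *Atg4c*, and none passed the test. The classic autophagosome marker gene *Map1lc3b* (LC3B) measured 226, 233 and 223 CPM in WT and 233, 234 and 234 CPM in *Snx14*-KO cerebellum (95% interval of the log2 fold change -0.080 to 0.19). The fusion genes *Stx17*, the autophagosome SNARE, and *Epg5*, a tether, were at -0.0021 (-0.26 to 0.26) and -0.11 (-0.33 to 0.11).

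The same comparison in cortex, a tissue without later degeneration, gave the same count. No member was called in *Snx14*-KO cortex (background 0.00548%, again *Snx14* alone), and none was under an unadjusted P of 0.05 (4.5% of all genes). DESeq2 called no member in cortex and 0.0876% of all genes, and none was under its unadjusted P of 0.05 (3.31% of genes were). The 95% intervals of 39 members lay within 0.50 of 0, as did those of 63.4% of all genes. The exception was *Atg10*, the E2-like enzyme for ATG12, with few counts and an interval of -0.20 to 0.57. *Atg4c* measured 48.1, 46.2 and 47.8 CPM in WT and 47.7, 51.5 and 56.2 CPM in *Snx14*-KO cortex, where the highest 2 values were *Snx14*-KO (log2 fold change 0.13, SE 0.0787, adjusted P = 0.996). *Wipi1* measured 23.3, 22.0 and 23.2 and 20.1, 22.3 and 18.3 CPM (log2 fold change -0.17, SE 0.104, adjusted P = 0.996). *Optn* measured 15.5, 14.2 and 17.5 and 16.9, 19.7 and 17.4 CPM (log2 fold change 0.19, SE 0.121, adjusted P = 0.996). All 3 overlapped between genotypes. *Pik3r4* was the single member whose groups did not overlap in cortex (background 9.24%, with 4.57% higher), at 37.7, 39.2 and 38.7 CPM in WT and 40.6, 39.8 and 43.8 CPM in *Snx14*-KO (log2 fold change 0.10, SE 0.0765, adjusted P = 0.996).

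**Figure D2:**
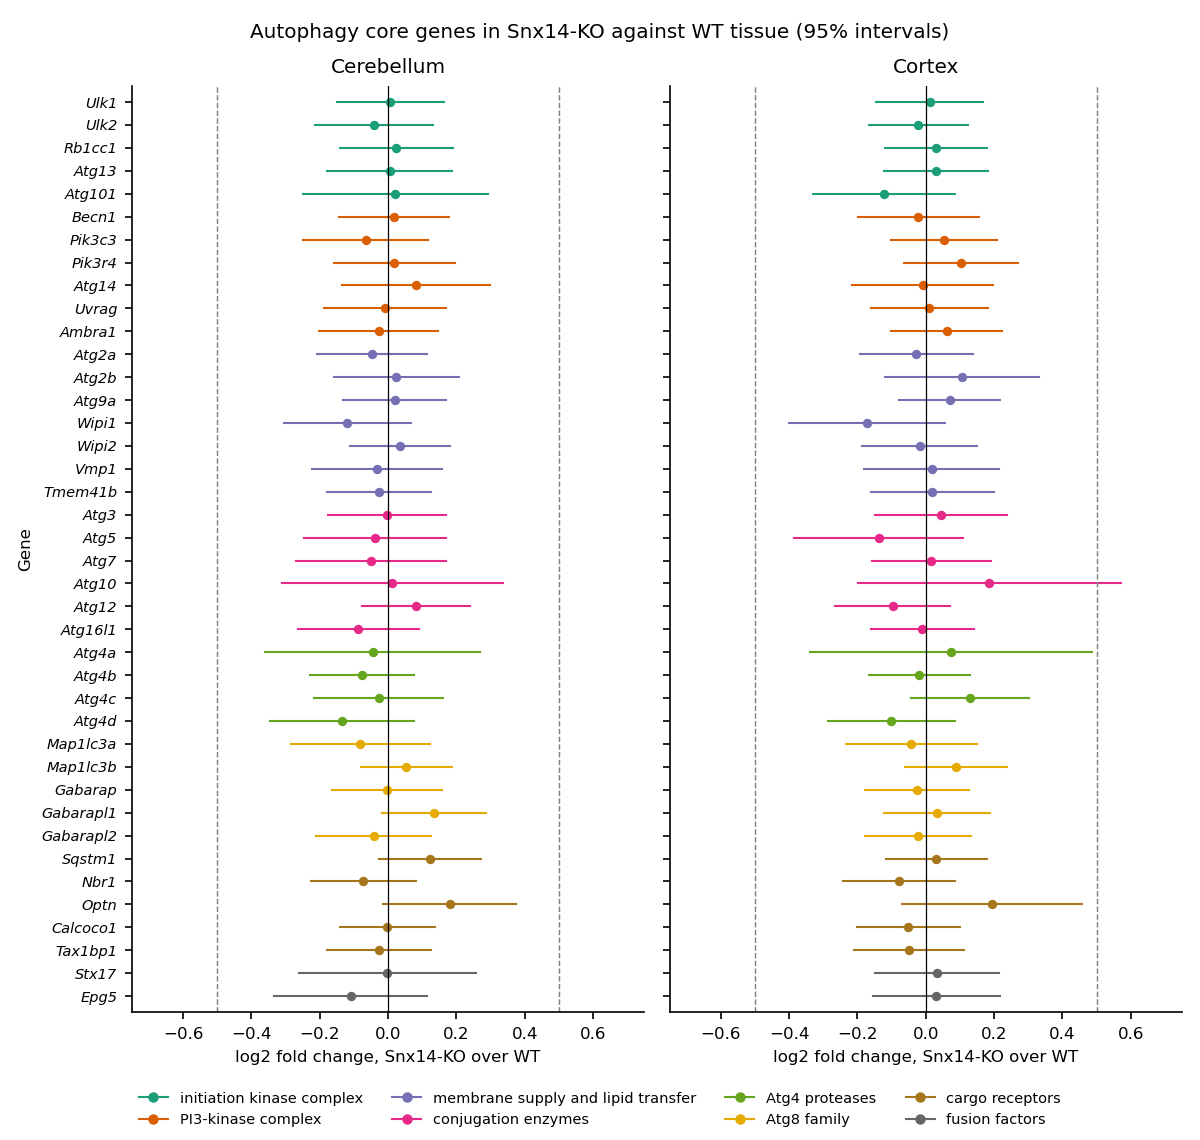
Log2 fold change of *Snx14*-KO over WT for each of the 40 genes in cerebellum (left) and cortex (right), with points for the fitted value, lines for the 95% interval, colors for the role in the pathway and dashed lines at 0.50 in either direction. All intervals include 0, and only that of *Atg10* in cortex crosses a dashed line.

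A difference between the tissues in the effect of the deletion was not detectable for any member. In the genotype-by-tissue interaction 0 of 40 members and 0% of 19380 genes were called by edgeR, and 0 members and 0.186% of genes by DESeq2. At an unadjusted P under 0.05 the counts were 0 members with either tool, against 5.68% of all genes with edgeR and 5.08% with DESeq2. The 95% intervals of 38 members lay within 0.50 of 0 (all genes, 42.2%). The smallest P of a member belonged to *Atg12*, the ubiquitin-like modifier that is joined to ATG5, which measured 70.2, 74.6 and 68.5 CPM in WT and 70.8, 75.3 and 77.3 CPM in *Snx14*-KO cerebellum. In cortex it measured 90.1, 96.5 and 88.1 and 88.3, 77.2 and 91.5 CPM (interaction log2 0.16, SE 0.106, adjusted P = 1.000). *Atg4c* (interaction log2 -0.17, SE 0.117) and *Pik3c3* (-0.13, SE 0.104) followed. *Atg10* and *Atg4a*, the members of fewest counts, were the 2 whose intervals reached past 0.50.

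Genes around the core gave the same count of 0 in both tissues. They comprised 11 other core and early genes, 17 other receptors, 12 fusion genes and 24 upstream genes of mTORC1, AMPK and TFEB that were tested. At an unadjusted P under 0.05 there was 1 of the 64 in cerebellum and 2 in cortex, where all genes gave 8.15% and 4.5%. In cerebellum the largest fitted difference among them was that of *Stbd1*, a glycogen receptor, at a log2 fold change of 1.05 (SE 0.372, adjusted P = 0.462). In cortex the largest was that of *Zfyve1* (DFCP1, a marker of the omegasome), which stood at 0.20 (SE 0.0808, adjusted P = 0.996). Neither was called.

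Autophagy core genes differed between the tissues at a share near that of all genes, mostly by small amounts. Between WT cerebellum and WT cortex 27 of 40 members were called, 9 higher and 18 lower in cerebellum. This share, 67.5%, stands beside 57.4% of all 18543 genes tested (28.2% higher and 29.2% lower). With a log2 fold change over 0.50 as well, 10 members (25%) were called, against 40.4% of all genes. The median member was at -0.12 and the median gene at 0.023. Libraries of the 2 tissues did not overlap for 29 members (11 higher, 18 lower in cerebellum), against 64.4% of all genes (31.6% and 32.7%). Without WT cerebellum replicate 3, the library with the most choroid plexus RNA, 25 members were called.

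On the counts as deposited, the receptor gene *Optn* had the largest difference. It measured 30.5, 32.6 and 32.9 CPM in WT cerebellum and 15.5, 14.2 and 17.5 CPM in WT cortex, 2.04-fold higher in cerebellum (log2 fold change 1.03, SE 0.100, adjusted P = 8.48e-06). *Gabarapl2* (GATE-16) measured 193, 182 and 180.5 and 99.4, 107 and 104 CPM, 1.79-fold higher (log2 fold change 0.84, SE 0.0624, adjusted P = 9.62e-07). *Wipi1* measured 36.0, 41.0 and 34.9 and 23.3, 22.0 and 23.2 CPM, 1.64-fold higher (log2 fold change 0.71, SE 0.0872, adjusted P = 4.79e-05). In each of these genes every cerebellum exceeded every cortex. In the other direction *Gabarapl1* measured 294, 278 and 271 CPM in cerebellum and 503, 558 and 546 CPM in cortex, 1.90-fold higher in cortex (log2 fold change -0.93, SE 0.0666, adjusted P = 7.60e-07). *Ulk2*, an initiation kinase, measured 90.8, 105 and 95.4 and 167, 159 and 155 CPM, 1.64-fold higher in cortex (log2 fold change -0.72, SE 0.0726, adjusted P = 1.13e-05). The protease gene *Atg4c* measured 33.9, 30.9 and 30.2 and 48.1, 46.2 and 47.8 CPM, 1.49-fold higher in cortex (log2 fold change -0.58, SE 0.0748, adjusted P = 7.44e-05). No cerebellum reached the lowest cortex in these 3 genes.

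**Figure D3:**
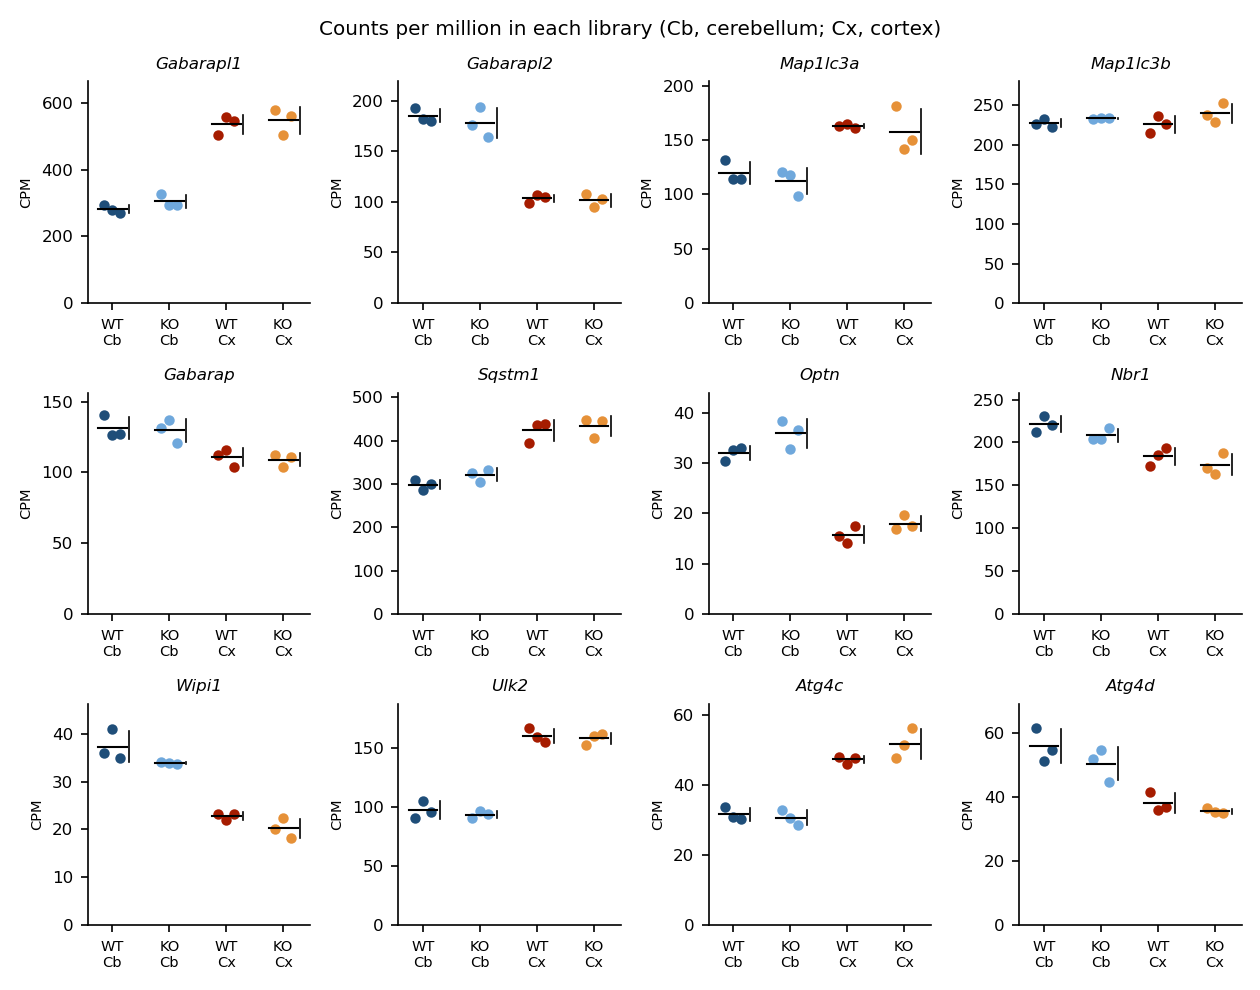
CPM of 12 members in each of the 12 libraries (points), with the mean of the 3 mice (bar) and its SD (line beside it); Cb is cerebellum and Cx cortex. *Gabarapl1*, *Ulk2* and *Atg4c* are higher in cortex and *Gabarapl2*, *Optn* and *Wipi1* in cerebellum in both genotypes, while *Map1lc3b* overlaps across all groups.

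Within the Atg8 family the tissues differed in composition more than in total. *Map1lc3a* was lower in cerebellum, at 131, 114 and 114 CPM against 162, 164 and 161 CPM (log2 fold change -0.44, SE 0.0712, adjusted P = 3.89e-04). *Gabarap* was higher, at 140.4, 126 and 127 against 113, 116 and 104 CPM (log2 fold change 0.25, SE 0.0705, adjusted P = 0.0117), a call lost without WT cortex replicate 3 (adjusted P = 0.0604). *Map1lc3b* did not pass the test (226, 233 and 223 and 215, 237 and 226 CPM, 95% interval -0.12 to 0.15). The LC3 branch thus had 1 gene lower in cerebellum, and the GABARAP branch 1 lower and 2 higher. Per length, *Gabarapl1* made up 33.1 ± 0.384% (SD, n = 3) of the summed Atg8 TPM in WT cerebellum and 49.4 ± 1.21% in WT cortex. *Gabarapl2* made up 18.9 ± 0.283% and 8.26 ± 0.0607%. The ratio of *Gabarapl1* to *Gabarapl2* was 1.75 ± 0.0176 in WT cerebellum and 5.98 ± 0.116 in WT cortex, and in *Snx14*-KO it was 1.99 ± 0.211 and 6.21 ± 0.0733. The sum of the family differed less, at 1393 ± 60.0 TPM in WT cerebellum and 1698 ± 31.8 TPM in WT cortex.

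**Figure D4:**
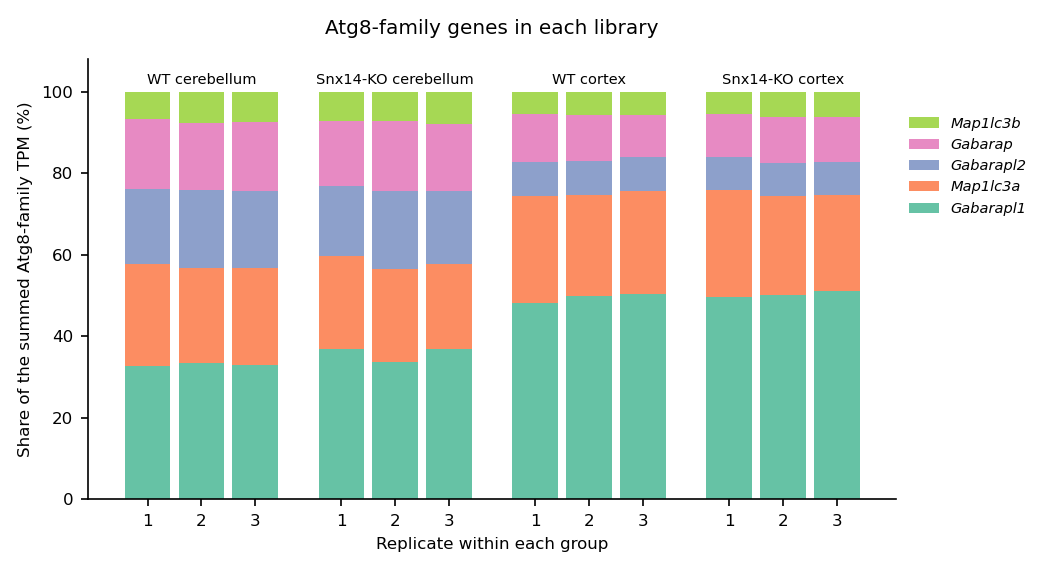
Share of each Atg8-family gene in the summed TPM of the family, as 1 stacked bar per library, with the 3 mice of each group side by side. *Gabarapl1* takes about 33% to 37% in cerebellum and 48% to 51% in cortex, and *Gabarapl2* about 17% to 19% in cerebellum and 8% in cortex, whichever the genotype.

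By role, the members called are given against the 29.2% of all genes called lower and 28.2% called higher in WT cerebellum, and no difference between roles was tested. All 5 initiation genes had a fitted log2 fold change below 0 and 4 were called: *Ulk2*, *Atg101* (log2 fold change -0.39), *Rb1cc1* (-0.36) and *Atg13* (-0.23), of which *Atg13* lost its call without any of 4 libraries (adjusted P up to 0.129, without WT cerebellum replicate 2). The paralog *Ulk1* measured 89.3, 79.0 and 83.4 CPM in WT cerebellum and 83.6, 87.0 and 86.6 CPM in WT cortex (log2 fold change -0.026, SE 0.0662, adjusted P = 0.754). The TPM ratio of *Ulk2* to *Ulk1* was 1.26 ± 0.174 in WT cerebellum and 2.03 ± 0.117 in WT cortex. Of the PI3-kinase genes 3 were called lower: *Becn1* (-0.48, SE 0.0812), *Uvrag* (-0.39, SE 0.0752) and *Pik3c3* (-0.21, SE 0.0683). The call of *Pik3c3* was lost without WT cerebellum replicate 2 or 3 or WT cortex replicate 2 (adjusted P of 0.0514 to 0.0811). *Atg14* and *Ambra1*, a regulator of beclin 1, were at 0.028 and -0.12 and did not pass the test. Both fusion genes were called lower, *Stx17* at -0.29 and *Epg5* at -0.29. *Stx17* lost its call without WT cortex replicate 1 (adjusted P = 0.0502) and *Epg5* without WT cortex replicate 3 (adjusted P = 0.0572).

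Genes that supply membrane and lipid split between the tissues. *Wipi1*, *Atg2b* (log2 fold change 0.51, SE 0.0786) and the scramblase gene *Tmem41b* (0.47, SE 0.0707) were higher in WT cerebellum, while *Atg9a* (-0.44, SE 0.0591) and *Wipi2* (-0.25, SE 0.0616) were lower. *Atg2a* and *Vmp1* did not pass the test. The balance of close relatives differed as well, since the TPM ratio of *Wipi1* to *Wipi2* was 0.771 ± 0.0693 in WT cerebellum and 0.395 ± 0.0140 in WT cortex. Among the conjugation enzymes *Atg16l1* (-0.50), *Atg7* (-0.39) and *Atg12* (-0.36) were lower and *Atg3* (0.31) higher, the last losing its call without WT cerebellum replicate 2 (adjusted P = 0.0574) or WT cortex replicate 1 (0.0613). *Atg5* and *Atg10* did not pass the test. Of the proteases *Atg4d* was higher (0.56, SE 0.0908), opposite to *Atg4c*, so that *Atg4c* stood at 31.2 ± 1.58 TPM and *Atg4d* at 25.4 ± 2.40 TPM in WT cerebellum, against 44.6 ± 1.84 and 16.6 ± 1.78 TPM in WT cortex. The level of *Atg4d* is uncertain. Its lower limit, with all counts of the overlapping *Kri1* taken off, would be 13.8 TPM in WT cerebellum and below *Atg4a* in WT cortex.

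The cargo receptors also split. *Sqstm1* measured 308, 287 and 299.9 CPM in WT cerebellum and 396, 436 and 439 CPM in WT cortex, lower in cerebellum (log2 fold change -0.50, SE 0.0662, adjusted P = 8.51e-05). Its partner *Nbr1*, which joins p62 in protein aggregates, measured 212, 231 and 220.3 and 173, 185 and 193 CPM, higher in cerebellum (log2 fold change 0.27, SE 0.0668, adjusted P = 0.00529). The groups did not overlap for either. *Calcoco1*, a receptor for the endoplasmic reticulum and Golgi, measured 59.8, 57.9 and 59.3 and 61.1, 59.2 and 61.8 CPM (log2 fold change -0.036, SE 0.0621, adjusted P = 0.637). *Tax1bp1* measured 177, 182 and 194 and 169.7, 172 and 186 CPM (log2 fold change 0.069, SE 0.0671, adjusted P = 0.405). Neither of these passed the test. The TPM ratio of *Sqstm1* to *Nbr1* was 2.77 ± 0.221 in WT cerebellum and 4.72 ± 0.0901 in WT cortex. The cell makeup of the tissues moved with these values. Between WT cerebellum and WT cortex, 10 of 10 granule cell, 10 of 10 Purkinje cell, 10 of 10 choroid plexus, 5 of 5 red blood cell and 8 of 10 oligodendrocyte markers were called higher, and 10 of 10 forebrain excitatory and 10 of 10 microglial markers lower. Astrocyte (7 higher, 2 lower), meningeal (6 and 1) and endothelial (4 and 2) markers split. The part of these cells in the member values was not tested.

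The tissue difference was measured again in the *Snx14*-KO mice, which share no library with the WT comparison. There 26 of 40 members were called, 9 higher and 17 lower in cerebellum (background 52.1%, with 25.5% higher and 26.6% lower), and 8 of them with a log2 fold change over 0.50 as well (37.9% of all genes). Libraries did not overlap for 28 members, 10 higher and 18 lower (all genes 60.6%, 29.8% and 30.8%). Without *Snx14*-KO cerebellum replicate 3 the count called was 23, and without *Snx14*-KO cortex replicate 2 it was 26. In the latter fit *Ambra1*, *Atg3* and *Nbr1* lost their calls, and *Atg101*, *Vmp1* and *Atg12* were called instead. In both genotypes 24 members were called, each in the same direction, which is 88.9% of the WT calls and 92.3% of the *Snx14*-KO calls. All genes were called at 57.4% in WT and 52.1% in *Snx14*-KO. Their share called in both was not counted, so this agreement is not shown to be a trait of the members. *Optn* measured 38.4, 32.7 and 36.6 CPM in *Snx14*-KO cerebellum and 16.9, 19.7 and 17.4 CPM in *Snx14*-KO cortex (log2 fold change 1.00, SE 0.105, adjusted P = 2.66e-05). *Gabarapl2* measured 176, 194 and 164 and 107, 94.8 and 103 CPM (log2 fold change 0.81, SE 0.0879, adjusted P = 3.31e-05), and *Wipi1* 34.2, 34.0 and 33.8 and 20.1, 22.3 and 18.3 CPM (log2 fold change 0.75, SE 0.0987, adjusted P = 1.26e-04). These were again the top 3 in favor of cerebellum on the counts as deposited. *Gabarapl1* measured 327, 294 and 294 and 579.6, 503 and 561 CPM (log2 fold change -0.84, SE 0.0840, adjusted P = 1.95e-05), *Ulk2* 90.6, 96.3 and 93.5 and 152, 159.9 and 161 CPM (log2 fold change -0.75, SE 0.0705, adjusted P = 1.25e-05), and *Atg4c* 33.0, 30.7 and 28.5 and 47.7, 51.5 and 56.2 CPM (log2 fold change -0.75, SE 0.0952, adjusted P = 1.05e-04). They were again the 3 lowest. Cerebellum and cortex libraries did not overlap for any of these 6.

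Other members of the Atg8 family and the receptors were called in the same direction as in WT. *Map1lc3a* was at a log2 fold change of -0.49 (SE 0.112, adjusted P = 0.00458), *Gabarap* at 0.26 (SE 0.0779, adjusted P = 0.0185) and *Sqstm1* at -0.42 (SE 0.0754, adjusted P = 9.87e-04). *Nbr1* was at 0.27 (SE 0.0785, adjusted P = 0.0171). The call of *Gabarap* was lost without *Snx14*-KO cerebellum replicate 1 or 2 (adjusted P of 0.0567 and 0.0606), and that of *Nbr1* without *Snx14*-KO cerebellum replicate 3 or *Snx14*-KO cortex replicate 1 or 2 (up to 0.0581). *Map1lc3b*, *Calcoco1* and *Tax1bp1* did not pass the test in either genotype. *Atg101*, *Wipi2* and *Atg12* were called in WT only, and *Pik3r4* and *Ambra1* in *Snx14*-KO only, but the interaction called none of these 5, so no difference between the genotypes was shown. Without *Snx14*-KO cortex replicate 2, *Atg101* (adjusted P = 0.0281) and *Atg12* (0.0187) were called in *Snx14*-KO as well, and without *Snx14*-KO cortex replicate 3 *Wipi2* was (0.0310). The call of *Pik3r4* was lost without *Snx14*-KO cerebellum replicate 2 (0.0841) or *Snx14*-KO cortex replicate 3 (0.0912), and that of *Ambra1* without any library but *Snx14*-KO cortex replicate 3 (up to 0.165, without *Snx14*-KO cerebellum replicate 3). The fitted log2 tissue differences of a member differed between genotypes by a median of 0.058 and at most by 0.18.

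**Figure D5:**
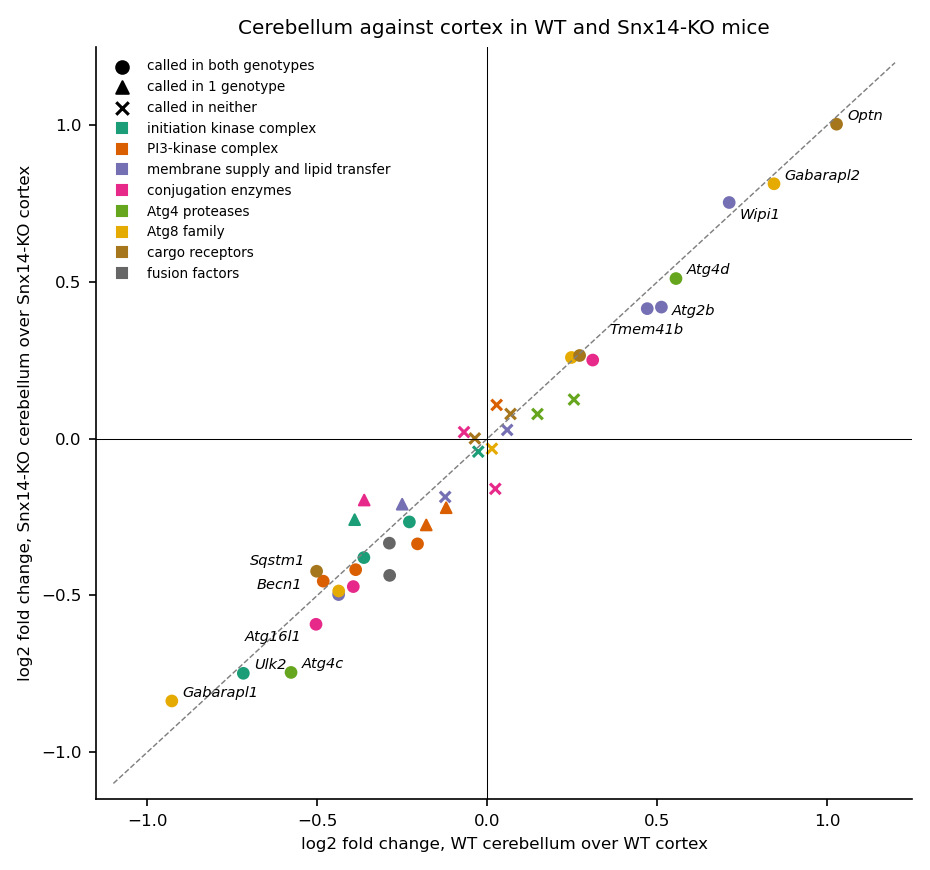
Log2 fold change of cerebellum over cortex in WT (x axis) against *Snx14*-KO mice (y axis) for the 40 genes, colored by role and shaped by the genotypes in which the gene was called; the dashed line marks equal values. The 24 genes called in both genotypes lie in the same quadrants, from *Gabarapl1* at lower left to *Optn* at upper right.

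Some members share exon sequence with other genes, and a read pair over 2 genes was counted for both, without regard to strand. No exon base was shared by 27 members, and 6 shared over 10% of theirs. *Becn1* shared 43.9% with *Cntd1*, *Atg9a* 32.6% with *Gm29253* and, for a few bases, *Ankzf1*, *Gabarapl1* 28.3% with *1700101I11Rik*, *Atg4d* 19.3% with *Kri1*, *Uvrag* 17.6% with *Gm45187* and *Sqstm1* 17.3% with *Mrnip*. The reads of such a pair of genes cannot be told apart, and counts of the other gene may be the member's own reads. The values below take off the most that could belong to the other gene. If every count of the other gene belonged to it and lay over the member, the WT log2 ratio of cerebellum to cortex would stay at -0.93 for *Gabarapl1*. For *Becn1* it would be -0.39 in place of -0.49, for *Sqstm1* -0.52 in place of -0.51 and for *Uvrag* -0.47 in place of -0.39. *Atg9a* would move from -0.44 to -0.59, and its level in WT cerebellum from 54.8 to 16.9 TPM. *Atg4d* would move from 0.55 to 1.40 in WT and to 1.63 in *Snx14*-KO, which would put it above *Optn* (1.05 and 1.01). Members with less shared sequence can also lie beside genes with many counts. Taking off all counts of *Gskip* would leave *Atg2b*, which shares 2.85% of its exon bases, at 4.46 in place of 14.8 TPM in WT cerebellum, with a log2 ratio of 0.37 in place of 0.51. *Map1lc3b* shares 0.772% with *Zcchc14* and would be at 70.7 in place of 99.9 TPM. The shared stretch is 383 bases in *Atg2b* and 58 bases in *Map1lc3b*. It need not hold all those counts, so these are extreme settings. The ratios of *Snx14*-KO to WT would move too, by most for *Atg2b* in cerebellum (log2 ratio 0.30 in place of 0.0091) and *Atg4d* in cortex (-0.43 in place of -0.10), and these were not tested. Among the 13 members that share any exon base, no tissue direction turned in WT. In *Snx14*-KO the direction of *Map1lc3b*, which was not called, turned from -0.039 to 0.11 in this extreme setting.

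Genes around the core were also compared between the WT tissues, and their counts stand beside 28.2% of all genes called higher and 29.2% called lower. Of the other core and early genes 4 of 11 were higher and 2 lower in cerebellum, led by *Trp53inp2* at a log2 fold change of 0.43 (SE 0.0619, adjusted P = 1.62e-04), which binds Atg8 proteins, *Wdr45b* (WIPI3) at -0.41 (SE 0.0748, adjusted P = 8.37e-04) and *Snx18* at 0.41 (SE 0.0722, adjusted P = 6.68e-04). Of the other receptors 4 of 17 were higher and 7 lower. *Stbd1* stood at -1.80 (SE 0.339, adjusted P = 0.00103), the endoplasmic reticulum receptor gene *Rtn3* at -1.28 (SE 0.0627, adjusted P = 3.72e-08) and the mitochondrial receptor gene *Fundc1* at 0.78 (SE 0.0815, adjusted P = 1.39e-05). Fusion genes were 1 of 12 higher and 4 lower. The SNARE gene *Vamp8* stood at 1.82 (SE 0.190, adjusted P = 1.40e-05), above any of the 40 members in favor of cerebellum, and *Vti1b* at -0.61 (SE 0.0745, adjusted P = 4.55e-05) and *Ykt6* at -0.59 (SE 0.0687, adjusted P = 3.39e-05). Of the 24 upstream genes 6 were higher and 4 lower. The mTOR-binding inhibitor gene *Deptor* stood at -1.35 (SE 0.127, adjusted P = 6.35e-06), the transcription factor gene *Tfeb* at 1.27 (SE 0.149, adjusted P = 3.42e-05) and the AMPK catalytic subunit gene *Prkaa2* at -1.17 (SE 0.0882, adjusted P = 1.15e-06).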

How the data were processed

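RNA-Seq read pairs were trimmed by the authors, mapped to GRCm38 with STAR and counted per gene with featureCounts 2.0.1, without strand and with pairs over several genes counted for each (pairs mapping to several places were not counted). The deposited counts are raw and unnormalized. The study's methods call the libraries strand-specific, while the labels name a NEBNext Ultra kit. The members and all gene lists were chosen with earlier results of these data known. Counts were tested with edgeR 4.0.16 (R 4.3.3; TMM, filterByExpr, quasi-likelihood, Benjamini-Hochberg over all genes tested), and a gene was called at an adjusted P under 0.05. CPM values use TMM factors over the 12 libraries, and TPM the exon lengths in the files. All 40 members were followed. Where none was called, those 3 with the smallest P were given, in full except for *Atg4c* and *Pik3c3* in the interaction. Otherwise the 3 largest per direction, the Atg8 family and the receptors were given. Around the core, up to 3 called genes per list were named. *Stbd1* and *Zfyve1* in the knockout comparisons, and members with non-overlapping groups, were named after their values were seen. Alternatives were RLE, no filter, DESeq2 1.42.0, limma-voom 3.58.1, a mouse block and leaving out libraries. Cerebellum and cortex of a genotype carry the same mouse numbers in the labels and were read as from the same mice. Their deviations correlated at 0.025 to 0.30 for the same number and at -0.22 to 0.14 for other numbers. The SE and P values printed are from fits without a mouse block, which was an alternative only. WT and *Snx14*-KO shared only numbers. Each of the 26248 numbered features and 97 spike-in features in the files was left out (0.051% to 0.063% of gene counts and 0 counts). The fit was tested on simulated data. Counting precision is set by depths of 16672589 to 19887427 gene counts per library.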

Additional observations from a re-analysis of the deposited data

How the results depend on the processing

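No member was called in *Snx14*-KO against WT cerebellum, in cortex or in the interaction under RLE normalization, without a filter, with DESeq2, with limma-voom, with the replicate block or with any library or mouse left out. Between tissues every alternative kept the count within 1.5 times. Leaving out 1 library gave 24 to 28 called members in WT (27 with all) and 21 to 26 in *Snx14*-KO (26 with all). The other settings gave 27 to 28 and 24 to 26. For cerebellum and cortex of the same mouse number, the replicate block called 27 members in WT and 26 in *Snx14*-KO, all of them shared with the fit without it, and so changed no call. WT and *Snx14*-KO mice share only numbers (correlations of -0.043 to 0.11), and the block called 0 members there. No direction of a called gene reversed. Calls of *Atg13*, *Pik3c3*, *Atg3*, *Gabarap*, *Stx17* and *Epg5* in WT, and of *Ambra1*, *Pik3r4*, *Atg3*, *Gabarap*, *Nbr1* and *Stx17* in *Snx14*-KO, were lost under some alternative, and the cause was not tested. *Pik3r4* (WT) and *Atg101*, *Atg12*, *Vmp1* and *Wipi2* (*Snx14*-KO) were called under some. The span of member levels in WT cerebellum was 51.6-fold as TPM and 51.7-fold as TMM-scaled CPM per kilobase. With 3 mice per group, *Snx14*-KO and interaction intervals reached past 0.50 for the low-count *Atg10* and *Atg4a* only, and neither protein nor flux was measured.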
